A study of Homo sapiens with 26 samples.

Results

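The mitochondrial genome contributed 37 of the 63086 genes in the count files, all those assigned to chrM. They are 13 protein-coding genes, 2 ribosomal RNAs (rRNAs) and 22 transfer RNAs (tRNAs). They were chosen by chromosome alone, with no use of measured values. On the hg38 mitochondrial sequence of 16569 bases, 28 of the genes lie on the plus strand of the annotation. The other 9 lie on the minus strand, namely MT-ND6 and 8 tRNAs.

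Poly(A) RNA was sequenced from 26 libraries of HCT116, a colon cancer cell line of human origin. The cells of 24 libraries carried Tet-OsTIR1-PURO, were knocked out for IGF2BP2 and IGF2BP3, and received a lentiviral mCherry-IGF2BP1 transgene. The transgene was WT, S181E, Y396E or RQ (R167Q, R168Q, R174Q and R178Q), and dishes of every population received either sodium arsenite (500 µM, 2 h) or, as control, PBS. This gave 8 groups of 3 libraries from dishes grown independently, and parental HCT116 cells gave 1 control and 1 arsenite library. The knockout parent came from single-cell clones, and each transgene population was sorted for mCherry through a narrow gate. A difference between populations therefore cannot be told apart from a difference between sorted lines. RNA was taken from lysate cleared by centrifugation after NP-40 treatment, and fewer mitochondria in that lysate cannot be told apart from less RNA per mitochondrion. With poly(A) selection, less RNA of a mitochondrial gene cannot be told apart from less of it being captured by its tail.

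Mitochondrial DNA is transcribed from both strands by its own polymerase, POLRMT, into long precursors. Most coding genes and both rRNAs are read from one strand in this way, and MT-ND6 and the minority of tRNAs from the other. The tRNAs sit between the longer genes and are cut out of the precursor, which frees the rRNAs and messenger RNAs on either side. The messenger RNAs of 12 coding genes then receive short poly(A) tails, whereas MT-ND6 RNA is generally reported without one. The coding genes all specify subunits of the respiratory chain or of ATP synthase.

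The ends of the coding genes are shown because poly(A) selection captures tails. In 6 of the 13 coding genes the annotated sequence stops before the last codon is complete, and the tail supplies the missing A bases of the stop codon. Their last 24 bases on the plus strand of hg38 are given 5′ to 3′, with the bases of the unfinished codon in capitals.
MT-ND1 (chrM:4239-4262): ctccagcattccccctcaaaccTA
MT-ND2 (chrM:5488-5511): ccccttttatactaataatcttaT
MT-CO3 (chrM:9967-9990): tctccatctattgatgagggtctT
MT-ND3 (chrM:10381-10404): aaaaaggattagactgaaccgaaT
MT-ND4 (chrM:12114-12137): acatcattaccgggttttcctctT
MT-CYB (chrM:15864-15887): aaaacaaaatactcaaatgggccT
The gene on the other strand, MT-ND6, ends in a complete codon, shown in capitals on the minus strand.
MT-ND6 (chrM:14149-14172): attgagattgctcgggggaatAGG

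Counts of tRNA genes depended on how reads were assigned. The 22 tRNA genes are 59 to 75 bases long, shorter than the 100-base reads, and reads that touched more than 1 gene of the same strand were not counted. For 9 of the tRNAs no full-length 100-base alignment can touch the gene without touching a neighbour, and none of these had more than 1 count in any library. A read shortened by trimming or clipping can still lie within a tRNA, so the counts do not separate mature tRNA from longer RNA. A pair of tRNAs with many counts is shown with the gene in capitals and flanking bases in lower case, on the plus strand, because they moved in opposite directions.
MT-TI, isoleucine tRNA (chrM:4243-4401): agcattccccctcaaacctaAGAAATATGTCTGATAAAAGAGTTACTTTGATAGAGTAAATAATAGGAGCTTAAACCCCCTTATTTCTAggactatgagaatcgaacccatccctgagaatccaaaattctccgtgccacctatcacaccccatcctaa
MT-TT, threonine tRNA (chrM:15868-16023): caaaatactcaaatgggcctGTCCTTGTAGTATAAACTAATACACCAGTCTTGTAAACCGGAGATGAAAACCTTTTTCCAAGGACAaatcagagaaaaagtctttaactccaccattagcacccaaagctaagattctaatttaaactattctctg
Full-length alignments counted for MT-TI alone have 40 possible positions and must lie within chrM:4263-4401, that is, in the gene and the bases after it, which are antisense to the glutamine tRNA MT-TQ.

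Total counts ranged from 22508145 to 50834401 per library. Y396E arsenite replicate 3 stood apart, with 13897 genes at 1 count or more against 20850 to 23473 in the other 25 libraries. The main values that rest on it are also given without it. Epithelial markers summed to between 3724 and 6339 CPM, with EPCAM at 343 to 546 CPM, and CEACAM5 was at or near 0. The 5 markers of blood, endothelium, fibroblasts and liver summed to 7.26 to 12.8 CPM, nearly all of it from COL1A1. Here CPM means counts per 1000000 counts of nuclear genes, with libraries scaled by TMM (trimmed mean of M-values) on nuclear genes only, so that mitochondrial RNA did not enter its own scale. A gene was called when the Benjamini-Hochberg adjusted p of edgeR's quasi-likelihood test was under 0.05 and the fold change above 1.2.

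The share of counts on chrM was lower after arsenite in each population. In WT control libraries 23.4, 26.9 and 21.1% of counts were mitochondrial, and in WT arsenite libraries 12.2, 12.3 and 10.8%. RQ control libraries had 26.6, 27.9 and 23.1%, and RQ arsenite libraries 13.3, 13.5 and 12%. The control shares of WT and RQ overlapped, and their arsenite shares lay below every control share of these populations. S181E libraries had 14.3, 13.2 and 11.7% in control and 9.42, 9.21 and 7.71% in arsenite. Y396E libraries had 17.1, 14.3 and 12.3% in control and 9.38, 10.1 and 7.55% in arsenite. All S181E and Y396E control shares lay below all WT control shares, and the arsenite shares of both lay below those of WT arsenite. The parental library had 17.8% in control (exact 95% binomial interval 17.7 to 17.8) and 9.86% in arsenite (9.85 to 9.87). These intervals cover counting error only. In each treatment the parental share, from 1 library, lay below every WT and RQ share. In control it lay above every S181E and Y396E share, and in arsenite within the range of Y396E. The dish numbered 3 had the lowest share of its group in all 8 groups.

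**Figure D1:**
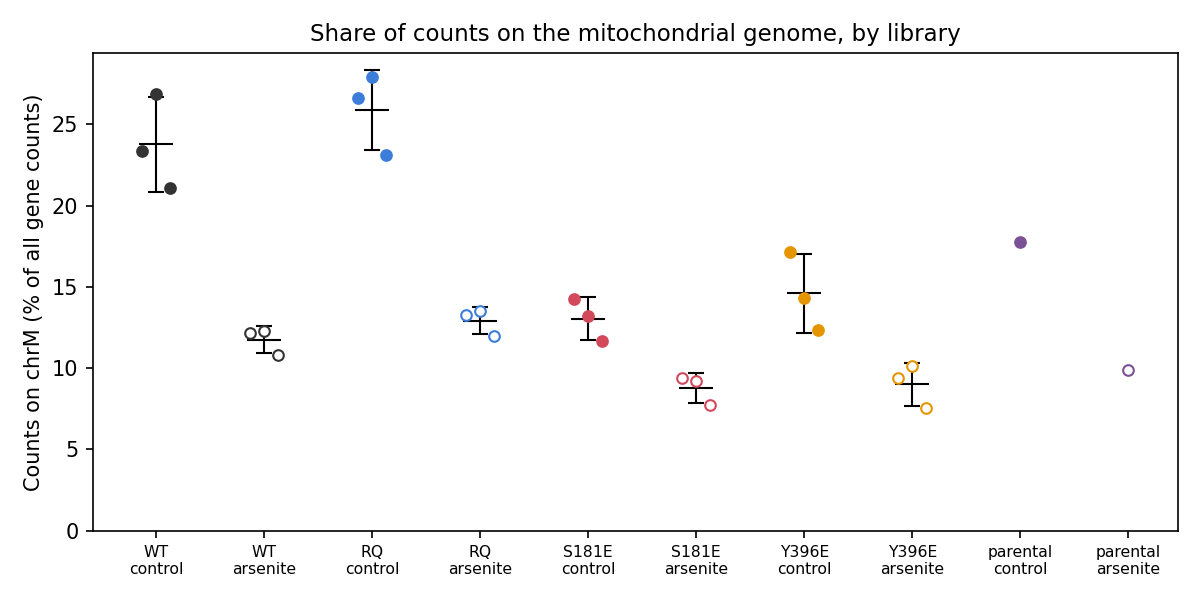
Counts on chrM as percent of all gene counts (vertical axis, from 0) for each library, by population and treatment. Filled points are control and open points arsenite, and bars give the mean and SD of 3 libraries. The mean share was 23.8% in WT control, 11.8% in WT arsenite and 8.78% in S181E arsenite.

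Taken as the ratio of mitochondrial to nuclear counts, the share fell after arsenite, with a log2 difference of -0.97 over the 4 populations (two-sided exact permutation test with labels exchanged within populations, p = 1.2e-05, the smallest it can give, adjusted p = 6.2e-05 over 5 tests). Without Y396E arsenite replicate 3 it was -0.94. By population the log2 difference was -1.22 (SE 0.15) in WT, -1.23 (SE 0.13) in RQ, -0.64 (SE 0.14) in S181E and -0.79 (SE 0.21) in Y396E, or -0.65 (SE 0.17) without Y396E arsenite replicate 3. Within 1 population 3 against 3 libraries cannot give an exact permutation p under 0.1, and each of the 4 gave 0.1. Over both treatments S181E was lower than WT by a log2 difference of -0.76 and Y396E by -0.66, each with exact permutation p = 0.005, the smallest possible, and adjusted p = 0.0083. Without Y396E arsenite replicate 3 the Y396E value was -0.59 (adjusted exact permutation p = 0.0167). RQ differed from WT by 0.16, which missed the threshold (exact permutation p = 0.11, adjusted 0.138). Libraries of RQ and WT with the same number deviated together, and with these paired the same difference gave an exact sign-flip permutation p of 0.0312 and an adjusted p of 0.0391. Y396E differed from S181E by 0.11 (exact permutation p = 0.39).

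Both mitochondrial rRNAs fell more than any coding gene of the plus strand. MT-RNR1 (12S rRNA, chrM:648-1601), the RNA of the small mitochondrial ribosomal subunit, had 16170.2, 22732 and 14712 CPM in WT control. In WT arsenite it had 1561, 1552 and 1465 CPM, a log2 fold change of -3.55 (SE 0.22) (edgeR adjusted p = 1.68e-13). MT-RNR2 (16S rRNA, chrM:1671-3229), of the large subunit, went from 77778, 102367 and 70940.2 CPM to 14799, 15349 and 14169.7 CPM, a log2 fold change of -2.50 (SE 0.16). The groups did not overlap for either rRNA. MT-RNR1 had a log2 fold change of -3.47 (SE 0.22) in RQ, of -2.87 (SE 0.21) in S181E and of -2.75 (SE 0.21) in Y396E. MT-RNR2 had a log2 fold change of -2.51 (SE 0.16), -2.15 (SE 0.15) and -2.33 (SE 0.15) in the same order. Without Y396E arsenite replicate 3 the Y396E log2 fold changes were -2.55 (SE 0.19) and -2.18 (SE 0.15). The poly(A) selection captured only rRNA with a tail or with internal A stretches, so these are not levels of total rRNA.

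The 13 coding genes were lower after arsenite in WT, all 13 called, with a median log2 fold change of -0.93. Together with the rRNAs, 15 of the 16 mitochondrial genes tested were called lower, beside 35.8% of all 9302 tested genes, and 1, MT-TI, was called higher, beside 36.2%. Of the 37 genes, 16 passed the filter of more than 10 CPM in at least 12 of the 24 libraries. The count was the same in RQ, 15 lower (background 35.5%) and 1 higher (37.1%). In S181E 10 were called lower (32.3%) and 1 higher (32.8%). In Y396E 11 were called lower (31.8%) and 1 higher (33.7%), and the same numbers were called without Y396E arsenite replicate 3. The gene called higher was MT-TI in each population. It passed the filter through the arsenite libraries, so its calls are not comparable with the share of all genes called higher. The median log2 fold change over all tested genes was -0.01 in each of these 4 comparisons.

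**Figure D2:**
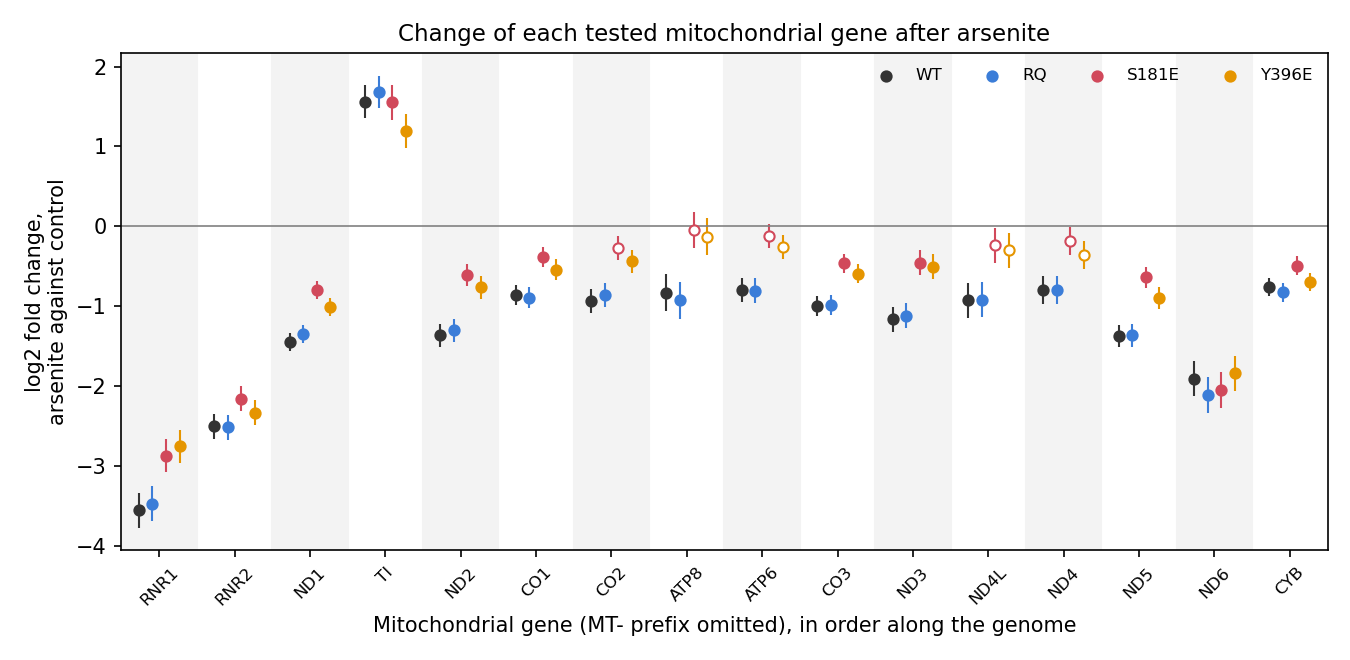
Log2 fold change of arsenite against control (vertical axis, with SE) for the 16 tested mitochondrial genes in order along the genome, in 4 populations. Filled points were called and open points were not. MT-RNR1 lies lowest in WT, at -3.55, and MT-TI is above 0 in each population.

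Among complex I genes of the plus strand, the falls were unequal. MT-ND1 had 7205, 8922 and 6617 CPM in WT control and 2892, 2746 and 2689 CPM in WT arsenite, a log2 fold change of -1.45 (SE 0.11) (edgeR adjusted p = 1.21e-11). MT-ND5 had 8572, 9269.6 and 7743 CPM and 3564, 3482 and 2823 CPM, a log2 fold change of -1.37 (SE 0.14). Neither gene's groups overlapped. MT-ND2 had a log2 fold change of -1.36 (SE 0.14) and MT-ND3 of -1.16 (SE 0.16), whereas MT-ND4 had a log2 fold change of -0.80 (SE 0.17) and MT-ND4L of -0.92 (SE 0.22). In S181E MT-ND1 had a log2 fold change of -0.79 (SE 0.11), MT-ND2 of -0.61 (SE 0.14) and MT-ND5 of -0.64 (SE 0.14). MT-ND3 was called lower in S181E at -0.45 (SE 0.16), a call lost without S181E arsenite replicate 3 (-0.28, adjusted p = 0.114) or control replicate 1 (-0.36, adjusted p = 0.0685). MT-ND4 and MT-ND4L were not called in S181E or Y396E, with log2 fold changes between -0.36 and -0.18. In Y396E both were called with the replicate block. MT-ND4 was also called there without RQ control replicate 3, WT control replicate 3, Y396E arsenite replicate 2 or Y396E control replicate 3 (edgeR adjusted p from 0.0181 to 0.0498). In Y396E MT-ND1 had a log2 fold change of -1.01 (SE 0.11) and MT-ND5 of -0.89 (SE 0.14), or of -0.92 (SE 0.11) and -0.73 (SE 0.12) without arsenite replicate 3. MT-ND3 and MT-CO2 were called lower in Y396E, at -0.50 and -0.44, and were not without Y396E control replicate 1 (-0.34, adjusted p = 0.0677, and -0.27, adjusted p = 0.112).

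The genes of complexes IV, III and V were all called lower in WT, with log2 fold changes from -0.99 to -0.76. MT-CO1, the catalytic subunit of cytochrome c oxidase, had 40628, 50409.6 and 36298 CPM in WT control and 24335, 24837 and 21101 CPM in WT arsenite. Its log2 fold change was -0.86 (SE 0.13), MT-CO2 had a log2 fold change of -0.93 (SE 0.15) and MT-CO3 of -0.99 (SE 0.12). MT-CYB, cytochrome b of complex III, had a log2 fold change of -0.76 (SE 0.12). Of the ATP synthase subunits MT-ATP6 had a log2 fold change of -0.79 (SE 0.15) and MT-ATP8 of -0.83 (SE 0.23). MT-ATP6 and MT-ATP8 were not called in S181E (-0.13 and -0.04) or in Y396E (-0.26 and -0.13). Without Y396E control replicate 3, MT-ATP6 was called in Y396E (-0.38, edgeR adjusted p = 0.0351). MT-CYB and MT-CO3 were called lower in S181E, at -0.49 and -0.46. MT-CO1 was called there at -0.38 and was not without S181E arsenite replicate 3 (-0.30, adjusted p = 0.06). Per kilobase of gene, the mean level of MT-CO2 in WT control was 46561 ± 8910.5 CPM (SD, n = 3), and that of MT-CO3 was 49764 ± 8654. MT-ND5 had 4706 ± 422 CPM per kilobase and MT-ND6 489 ± 108, the lowest of the 13. Poly(A) RNA was sequenced, and MT-ND6 RNA is generally reported without a tail. Its values and the strand ratios below are therefore not levels of total RNA.

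MT-ND6, the only coding gene of the minus strand and a complex I subunit, fell more than the other coding genes. It had 297, 281 and 192 CPM in WT control and 77.7, 71.3 and 57.1 CPM in WT arsenite. The groups did not overlap, and the log2 fold change was -1.90 (SE 0.22) (edgeR adjusted p = 2.25e-08). It had a log2 fold change of -2.11 (SE 0.22) in RQ, -2.05 (SE 0.23) in S181E and -1.84 (SE 0.22) in Y396E, or -1.75 (SE 0.23) without arsenite replicate 3. Minus-strand counts per 1000 plus-strand counts were 1.0, 0.766 and 0.749 in WT control and 0.602, 0.549 and 0.511 in WT arsenite. S181E control libraries had 1.41, 1.26 and 1.23, and S181E arsenite libraries 0.509, 0.512 and 0.503. All 4 populations had lower ratios in every arsenite library than in every control library of the same population. Over the 4 populations the ratio fell, with a log2 difference of -0.94 (exact permutation p = 1.2e-05, adjusted 6.2e-05, 3 against 3 libraries per population). It was -0.59 (SE 0.15) in WT, -0.80 (SE 0.26) in RQ, -1.35 (SE 0.06) in S181E and -1.01 (SE 0.15) in Y396E, or -1.04 (SE 0.21) without Y396E arsenite replicate 3. None of the 4 tests between populations over both treatments passed the threshold, with adjusted exact permutation p between 0.292 and 0.76. In control alone the ratios of all 3 S181E libraries lay above those of WT (log2 difference 0.64, SE 0.15, exact permutation p = 0.1, the smallest 3 against 3 allow). Plus-strand counts include both rRNAs, which were lower in S181E and fell after arsenite. Against the other coding genes only, MT-ND6 had 1.79, 1.61 and 1.53 counts per 1000 in S181E control and 1.39, 1.10 and 1.05 in WT control. In arsenite the means of this measure were 0.514 in S181E and 0.594 in WT.

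Within coding counts, the share taken by single genes shifted after arsenite. The log2 difference was -1.28 for MT-ND6, -0.49 for MT-ND1, -0.41 for MT-ND5 and -0.35 for MT-ND2, each with p = 1.2e-05 (exact permutation within populations of 3 against 3, adjusted p = 0.000203 over 65 tests). The shares of MT-ATP6 and MT-ND4 rose by 0.19 and 0.18 (adjusted exact permutation p = 0.000271). In all, 9 of 13 shares differed, between 9 and 10 when single libraries were left out. MT-CO3 (-0.09) and MT-ND3 (-0.14) were among them, and their direction turned to 0.27 and 0.17 when the rRNAs were counted in the denominator. MT-CO1 and MT-CYB did not pass the test (0.01 and -0.02). Relative to WT, 7 shares differed in S181E and 5 in Y396E, among them MT-ND3, higher by 0.51 and 0.52, and MT-CO1, with log2 differences of -0.24 and -0.25 (each adjusted exact permutation p = 0.0177, n = 3 per group). The share of MT-ND2 also differed in RQ against WT (-0.14, adjusted exact permutation p = 0.0177) and in Y396E against S181E (-0.09, adjusted exact permutation p = 0.0424). With same-numbered libraries paired, RQ against WT gave an exact sign-flip p of 0.0312, the smallest that 64 flips allow (adjusted 0.07). The paired test therefore cannot decide whether this difference holds.

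MT-TI, between MT-ND1 and MT-ND2, rose after arsenite in each population. It had 8.39, 9.39 and 6.26 CPM in WT control and 24, 25.1 and 21.7 CPM in WT arsenite, a log2 fold change of 1.56 (SE 0.20) (edgeR adjusted p = 1.8e-07). In S181E it went from 4.55, 5.52 and 4.43 CPM to 15.9, 14.9 and 11.8 CPM. The groups did not overlap in either population. Its log2 fold change was 1.68 (SE 0.20) in RQ, 1.55 (SE 0.22) in S181E and 1.19 (SE 0.21) in Y396E, or 1.47 (SE 0.15) without Y396E arsenite replicate 3. It exceeded 10 CPM in 11 of 12 arsenite libraries and 1 of 12 control libraries, so it passed the filter through the group in which it is high. Its calls after arsenite are therefore not comparable with the background share. Its neighbours on the plus strand, MT-ND1 before it and MT-ND2 after it, fell as given above, and so did the methionine tRNA MT-TM that follows it.

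The other tRNAs that changed after arsenite were lower. With a filter of 0.5 CPM in 3 libraries, 10 tRNAs were tested among 15557 genes. In WT 5 of the 10 were called lower (background 26.1%), in RQ 7 (26.3%), in S181E 5 (23.3%) and in Y396E 6 (25.2%). MT-TA, MT-TM and MT-TW passed this filter through the control libraries, in which they are high. In the fitted arsenite libraries MT-TA was at 0.453 CPM or less and MT-TW at 0.404 CPM or less. MT-TM exceeded 0.5 CPM only in S181E arsenite replicate 2 (0.529). The counts that include these genes are therefore not comparable with the background share. MT-TT, between MT-CYB and the control region, had 7.19, 8.28 and 5.62 CPM in WT control and 0.777, 0.569 and 0.642 CPM in WT arsenite. It had a log2 fold change of -3.37 (SE 0.39) in WT (edgeR adjusted p = 5.02e-08), -3.42 (SE 0.39) in RQ, -4.03 (SE 0.45) in S181E and -3.82 (SE 0.43) in Y396E, with no overlap of groups. Y396E arsenite replicate 3 had no MT-TT count, and without it the Y396E value was -3.25 (SE 0.28). The same 6 tRNAs were called lower in Y396E without that library (MT-TQ, MT-TM, MT-TW, MT-TA, MT-TD and MT-TT), and MT-TQ moved from -2.22 to -4.63. MT-TM had 2.08, 1.89 and 1.58 CPM in WT control and 0.173, 0.0542 and 0.117 CPM in WT arsenite, a log2 fold change of -3.99 (SE 0.59). The alanine tRNA MT-TA on the minus strand went from 1.57, 2.49 and 2.06 CPM to 0.259, 0.163 and 0.292 CPM, a log2 fold change of -3.04 (SE 0.49), and it had no count in the 3 Y396E arsenite libraries. The proline tRNA MT-TP lies on the minus strand, at the highest coordinates of any chrM gene. It was not called in any population, with log2 fold changes from -0.42 in WT to 0.38 in S181E, and 0.65 in Y396E without arsenite replicate 3. The tRNA genes rested on few reads, at most 940 in a library for MT-TI. Of the 12 tRNAs not tested, 8 were at 0 in all 26 libraries (MT-TV, MT-TN, MT-TK, MT-TG, MT-TR, MT-TH, MT-TS2 and MT-TL2). All of these but MT-TN, which has 6 positions, are tRNAs with no position for a full-length read of their own, so the zeros set no limit on their RNA. The other 4 were MT-TF, MT-TL1, MT-TC and MT-TY, each with at most 14 counts in a library.

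**Figure D3:**
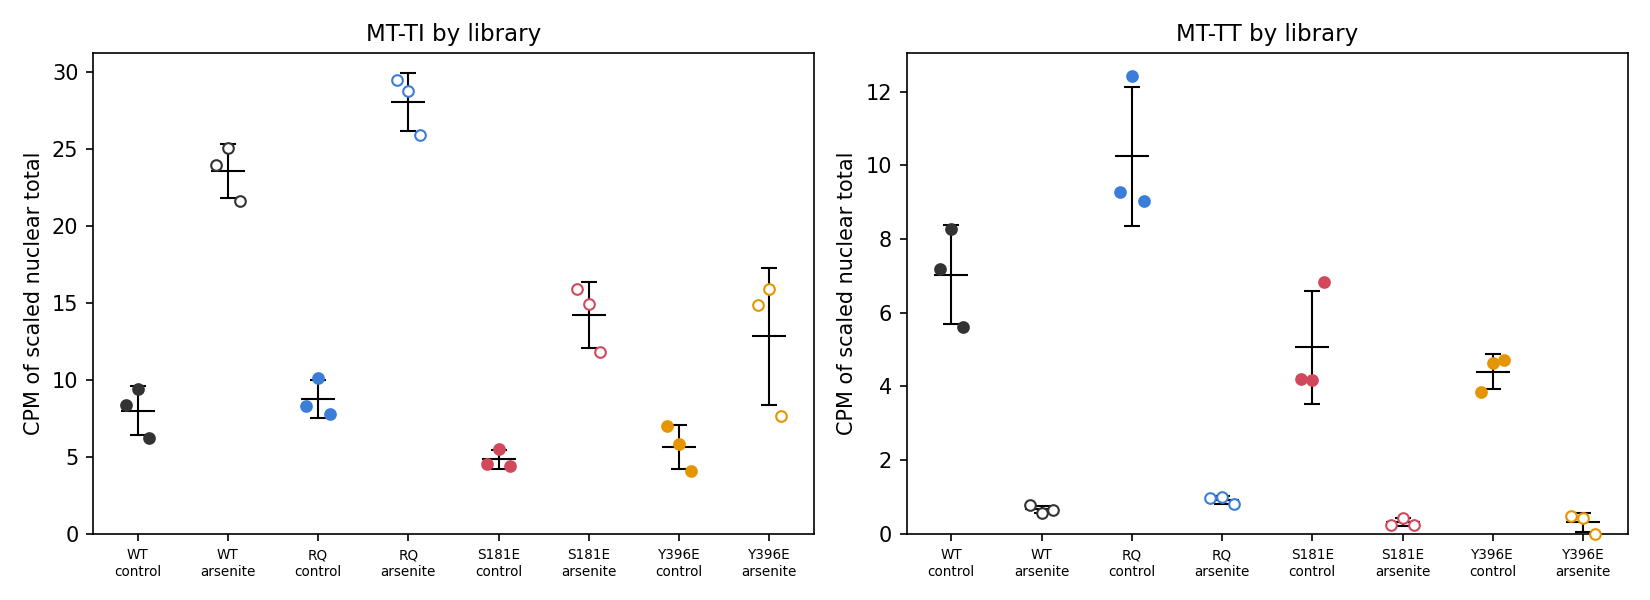
CPM of the isoleucine tRNA MT-TI and the threonine tRNA MT-TT (vertical axes, from 0) in each library by population and treatment. Filled points are control and open points arsenite, and bars give mean and SD. MT-TI is higher and MT-TT lower in arsenite libraries, with MT-TT at 0.78 CPM or less in WT arsenite.

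In control, S181E and Y396E had lower levels of nearly all tested mitochondrial genes than WT. In S181E 15 of 16 were called lower, beside 16.1% of all tested genes, and in Y396E 14 of 16, beside 15.3%. None was called higher, and both comparisons share the WT libraries. MT-RNR2 had 31836, 30153 and 24894 CPM in S181E control and 37698, 32412 and 24378 CPM in Y396E control, all below the WT control values. The log2 fold change of MT-RNR2 was -1.53 (SE 0.15) in S181E (edgeR adjusted p = 1.7e-08) and -1.41 (SE 0.15) in Y396E. For MT-RNR1 it was -1.38 (SE 0.20) and -1.37 (SE 0.20). MT-CO1 had 21107, 19818 and 17943 CPM in S181E control and 27399, 21345 and 19453 CPM in Y396E control. These values also lay below all WT control values, with log2 fold changes of -1.11 (SE 0.13) and -0.90 (SE 0.13). Over the 13 coding genes the median was -0.82 in S181E and -0.66 in Y396E, and the median over all tested genes was 0.01 in S181E. Of 6 tested epithelial markers, 3 were called lower and 1 higher in S181E control, CLDN4 at -1.45, CDH1 at -0.47, EPCAM at -0.29 and KRT8 at 0.36 (median -0.10). The same 4 were called in the same directions in Y396E control, and their part in the result was not tested. MT-ND3 was the least changed called gene of the plus strand in S181E, at -0.52 (SE 0.16), and was not called in Y396E (-0.35 (SE 0.16), adjusted p = 0.0772).

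Some of these calls rested on single libraries. MT-ND6 was not called in S181E (-0.47 (SE 0.21), edgeR adjusted p = 0.0696). In Y396E it was called at -0.52 (SE 0.21) with an adjusted p of 0.0489, a call lost when any of 14 of the 24 libraries was left out. MT-ATP8 and MT-ND4L in Y396E each lost the call without WT control replicate 1 or 2 or Y396E control replicate 2 or 3, with adjusted p up to 0.145 and 0.164. In S181E MT-ND3 and MT-TI lost it without WT control replicate 2 (adjusted p = 0.0783 and 0.0531), and MT-ATP8 without S181E control replicate 2 (0.0588). Other calls were gained. MT-ND6 passed in S181E without RQ control replicate 1, S181E control replicate 1, WT control replicate 3 or Y396E arsenite replicate 3. MT-ND3 and MT-TI passed in Y396E without WT control replicate 3, Y396E control replicate 1 or Y396E arsenite replicate 3. The count of called genes stayed between 13 and 16 in S181E and between 11 and 16 in Y396E.

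After arsenite fewer mitochondrial genes differed from WT. In S181E 6 of 16 were called lower (background 8.22%) and in Y396E 6 of 16 (11.8%), MT-RNR1, MT-RNR2, MT-TI, MT-CO1, MT-CO3 and MT-CYB in both. MT-RNR2 had 6902, 7061 and 5549 CPM in S181E arsenite and 6772, 7062 and 4949.6 CPM in Y396E arsenite. Its log2 fold change was -1.18 (SE 0.15) in S181E (edgeR adjusted p = 1.57e-06) and -1.24 (SE 0.15) in Y396E. MT-CO1 was at -0.64 (SE 0.13) and -0.58 (SE 0.13), and MT-CYB at -0.64 (SE 0.12) and -0.55 (SE 0.12). MT-TI was at -0.74 (SE 0.20) and -0.88 (SE 0.19). MT-ND2 had 3106, 2933 and 2651 CPM in WT arsenite and 3513, 3107 and 2562 CPM in S181E arsenite, which overlapped (log2 fold change 0.08 (SE 0.14)). Without S181E arsenite replicate 3, S181E kept 3 calls, MT-RNR2, MT-CO1 and MT-CYB. MT-ND6 gained a call in S181E (log2 fold changes from -0.73 to -0.60, edgeR adjusted p from 0.0196 to 0.0474) when some other libraries were left out. These were RQ arsenite replicate 3, RQ control replicate 1, WT arsenite or control replicate 3, Y396E arsenite replicate 3 and Y396E control replicate 1 or 3. The replicate block also called MT-ND6, MT-CO2 and MT-ND4 in S181E. Without Y396E arsenite replicate 3, 5 genes were called in Y396E. MT-RNR2 (-1.10), MT-CO1 (-0.48), MT-CYB (-0.45) and MT-TI (-0.61) were lower, and MT-ND3 was higher (0.45). MT-CO3 and MT-RNR1 in Y396E also lost the call without WT arsenite replicate 1 or 2, with adjusted p between 0.0539 and 0.0651.

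**Figure D4:**
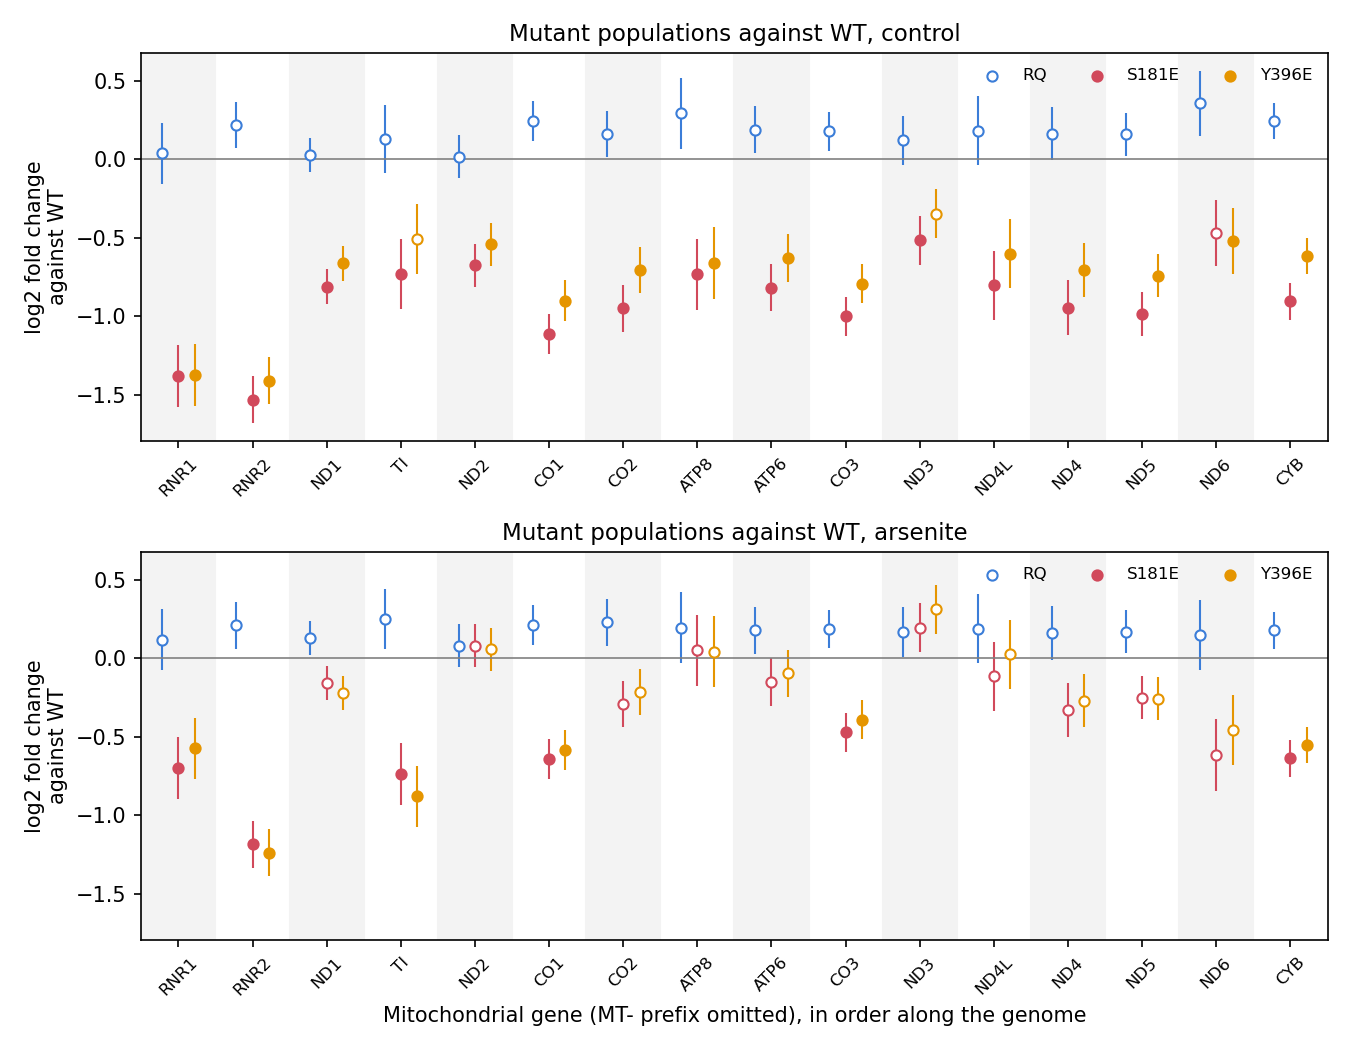
Log2 fold change of RQ, S181E and Y396E against WT (vertical axis, with SE) for the 16 tested mitochondrial genes in control (upper panel) and arsenite (lower panel). Filled points were called and open points were not. S181E and Y396E lie below 0 for all 16 genes in control, down to -1.53 for MT-RNR2 in S181E.

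In the unpaired fit no mitochondrial gene was called by CPM between RQ and WT, and with pairing 1, MT-ND6, was called in control. In control 0 of 16 were called (background 1.29% in either direction), with 1 at an unadjusted edgeR p under 0.05 and 0 called by DESeq2. In arsenite 0 of 16 were called (1.51%), with 0 at an unadjusted p under 0.05 and 0 by DESeq2. The log2 fold changes were all above 0, from 0.02 to 0.35 in control and from 0.08 to 0.25 in arsenite. With same-numbered libraries paired, MT-ND6 was called higher in RQ control (log2 fold change 0.35, adjusted p = 0.0451). MT-ND6 had 431, 292 and 261 CPM in RQ control, which overlapped the WT control values. The difference in arsenite response between RQ and WT was called for 0 of 16 (0.204%), with 0 at an unadjusted p under 0.05 and 0 by DESeq2.

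No mitochondrial gene was called by CPM between Y396E and S181E. In control 0 of 16 mitochondrial genes were called between them, beside 0% of the 9302 tested genes, with 1 at an unadjusted edgeR p under 0.05 and 0 called by DESeq2. In arsenite 0 of 16 were called, beside 0%, with 0 at an unadjusted p under 0.05 and 0 by DESeq2. Over all genes 312 in control and 1399 in arsenite had an unadjusted p under 0.05, and DESeq2 called 1 and 10. The mitochondrial log2 fold changes ran from -0.05 to 0.29 in control and from -0.14 to 0.16 in arsenite.

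The fall after arsenite was smaller in S181E and Y396E than in WT for several genes, tested as a difference between responses. In S181E 7 of 16 genes had a response above that of WT (background 7.71%), MT-ND1, MT-ND2, MT-CO2, MT-ATP6, MT-CO3, MT-ND3 and MT-ND5. In Y396E 4 of 16 did (11.4%), MT-RNR1, MT-ND1, MT-ND2 and MT-ND3. The Y396E count was 0 with only the groups compared in the fit, 1 with the lower filter, 2 by DESeq2 and 12 with the replicate block, and the S181E count was 12, 4, 7 and 12. MT-ND2 illustrates this, with 7502, 8449 and 6404 CPM in WT control against 5225, 4563 and 4210.2 CPM in S181E control, and overlapping arsenite values as given above. The difference of responses for MT-ND2 was 0.75 (SE 0.19) in S181E (edgeR adjusted p = 0.0104) and 0.60 (SE 0.19) in Y396E (adjusted p = 0.0278). For MT-ND6 it was -0.14 (SE 0.31) and 0.07 (SE 0.31), and for MT-CYB 0.27 (SE 0.16) and 0.06 (SE 0.16), none of them called. The counts moved with single libraries, from 3 to 12 for S181E and from 0 to 11 for Y396E. The S181E count was 3 or 4 without S181E arsenite replicate 1 or 2, S181E control replicate 2 or 3, WT arsenite replicate 3 or WT control replicate 2. It was 11 or 12 without WT control replicate 3 or Y396E arsenite replicate 3. The Y396E count was 0 without WT arsenite replicate 3, WT control replicate 2, Y396E arsenite replicate 1 or Y396E control replicate 2 or 3, and 1 or 2 without Y396E arsenite replicate 2 or WT arsenite replicate 1 or 2. It was 8, 9 and 11 without WT control replicate 3, Y396E control replicate 1 and Y396E arsenite replicate 3.

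The ratio of rRNA to coding counts, computed after the data had been seen, was lower after arsenite in every population. Counts of rRNA per coding count were 0.439, 0.488 and 0.468 in WT control and 0.136, 0.14 and 0.15 in WT arsenite. In S181E they were 0.317, 0.333 and 0.305 and 0.0842, 0.0874 and 0.0833, and in Y396E 0.29, 0.317 and 0.271 and 0.0852, 0.078 and 0.0755. RQ libraries had 0.465, 0.468 and 0.471 in control and 0.136, 0.145 and 0.149 in arsenite, which overlapped WT in both treatments. The ratio fell after arsenite, with a log2 difference of -1.80 (exact permutation p = 1.2e-05, 3 libraries per group). It was lower than WT by -0.64 in S181E and by -0.75 in Y396E (each exact permutation p = 0.005, adjusted 0.0083). Without Y396E arsenite replicate 3 the Y396E difference was -0.73. The parental ratios were 0.428 in control and 0.148 in arsenite, and those of S181E and Y396E lay below them in each treatment.

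**Figure D5:**
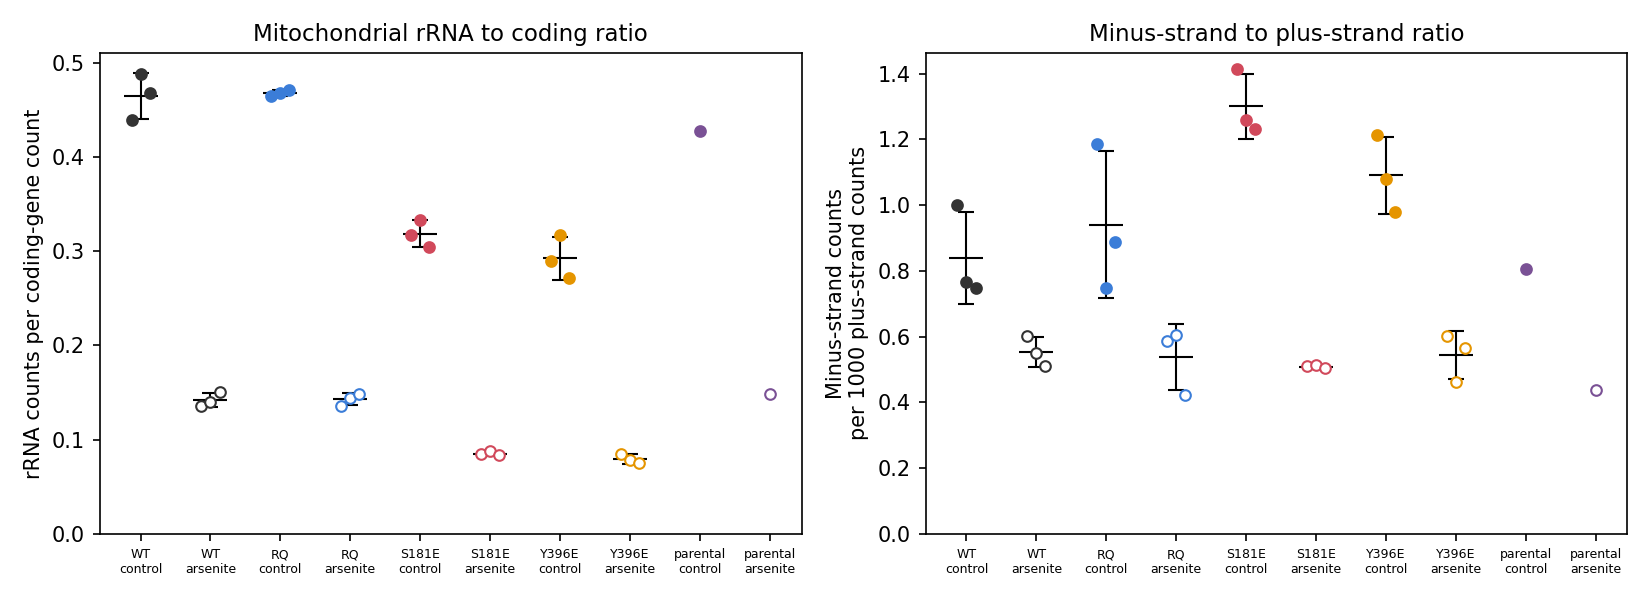
Left, counts of both mitochondrial rRNAs per count of the 13 coding genes. Right, minus-strand counts per 1000 plus-strand counts of chrM. Points are libraries (filled control, open arsenite), bars mean and SD, and both axes start at 0. The rRNA ratio was between 0.439 and 0.488 in WT control and between 0.136 and 0.15 in WT arsenite.

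Nuclear genes whose products act on mitochondrial RNA changed in both directions after arsenite in WT. Of the genes for mitochondrial RNA processing, polyadenylation and decay, 22 of 24 were tested, and 12 were called higher and 1 lower (median log2 fold change 0.46, against -0.01 over all genes, of which 36.2% were called higher and 35.8% lower). LRPPRC, whose protein stabilises mitochondrial messenger RNAs, went from 78.6 ± 6.0 to 332 ± 6.26 CPM (SD, n = 3), a log2 rise of 2.08. Its partner SLIRP was the member called lower (-0.67), and PTCD3, a protein of the small mitochondrial ribosomal subunit, rose by 1.34. Of 8 tested genes for mitochondrial transcription (10 listed), 4 were higher and 3 lower, counts near the shares of all genes. POLRMT, the RNA polymerase, rose by 1.61 and MTERF3, a repressor of transcription, by 0.91. MRPL12, a ribosomal protein reported to bind the polymerase, was at -0.61. Of 15 genes for DNA replication and nucleotide supply, all tested, 7 were higher and 4 lower, also near those shares, with POLG2 at 1.39 and RNASEH1 at -0.97. Of 6 tested regulators of mitochondrial biogenesis (8 listed), 3 were higher and 0 lower (36.2% and 35.8% of all genes), NRF1 at 0.70, GABPA at 0.58 and PPRC1 at 0.53. The processing list had 12 called higher in each of the other populations too, with 1 called lower in RQ and S181E and 3 in Y396E, where 32.8 to 37.1% of all genes were called higher.

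Between populations in control, fewer of these genes were called. Of all tested genes 14.9% were called higher and 16.1% lower in S181E, and 13.5% and 15.3% in Y396E. In S181E against WT the processing list had 5 higher and 0 lower, led by PNPT1, the mitochondrial exoribonuclease, at 0.45. The transcription list had 1 higher, POLRMT at 0.30, and 1 lower, MTERF3 at -0.32. The replication list had 1 higher, MGME1 at 0.32, and 3 lower, RRM2B at -0.76, TOP1MT, the mitochondrial topoisomerase, at -0.73, and TK2 at -0.44. In Y396E the same lists had 5 and 0, 1 and 1, and 1 and 3 called, with TOP1MT at -0.84 and RRM2B at -0.70. In RQ against WT only POLG2 of the 4 lists was called in control (0.30), and 0 were called in arsenite.

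Nuclear copies of mitochondrial DNA share sequence with these genes. On chr1, 1354 windows of 100 bases between 629084 and 634924 matched chrM exactly. Exact matches on any nuclear chromosome covered 27.9% of the possible read positions inside MT-CO1, 26.1% in MT-ND2, 21.2% in MT-RNR1, 11.9% in MT-ATP6, 11% in MT-ND1 and at most 4.67% in the other coding genes, and full-length reads from such positions, which map more than once, were not counted. MT-RNR2 and MT-ND6 had no such window. The annotated copies had lower counts than the mitochondrial genes they match, with MTND2P28 at 216 ± 32.4 CPM and MTCO1P12 at 61.3 ± 6.04 CPM in WT control. Of 6 tested copies, 5 were called lower (26.1% of all genes with the same filter) and 0 higher after arsenite in WT, with MTND2P28 at -1.24 and MTATP6P1 at -0.75. In RQ 4 of the 6 were called lower (26.3%), in S181E 0 (23.3%) and in Y396E 3 (25.2%).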

How the data were processed

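The authors aligned trimmed 100-base single reads to hg38 with STAR v2.7.11b and counted reads per gene with featureCounts (Subread v2.0.6, reverse strand setting, GENCODE basic annotation). The deposited values are whole-number counts, not normalized. Multi-mapping reads and reads over more than 1 gene of the same strand were left out. Symbols and biotypes came from GENCODE release 44, which matched 62541 of 63086 identifiers and all 37 genes of chrM. Groups and replicate numbers came from the sample labels. The members, lists and tests were chosen with earlier results of these data known.

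Library sizes and TMM factors (0.956 to 1.02) were taken from nuclear genes. Nuclear protein-coding genes and all chrM genes with more than 10 CPM in at least 12 of 24 libraries were tested (9302, of which 16 on chrM). The fit was the quasi-likelihood test of edgeR 4.0.16 under R 4.3.3 with 1 mean per group and 16 residual degrees of freedom, with Benjamini-Hochberg adjustment across every tested gene. DESeq2 1.42.0 was an alternative. Calls used an adjusted p under 0.05 and a fold change above 1.2. The SE of a log2 fold change is its size divided by the square root of F. Shares and ratios were compared on a log2 scale by two-sided exact permutation within strata, with Python 3.11.15. Both procedures were tested on simulated data with known changes. All 37 chrM genes were eligible to be named, and of the nuclear lists the called genes with the largest changes per comparison. A few further list genes, and the rRNA to coding ratio, were added after the data had been seen. P-values measure the spread between dishes of one sorted line.

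Deviations from group means across tested nuclear genes correlated between same-numbered RQ and WT libraries (r = 0.29, 0.52 and 0.47 in control, and 0.14, 0.13 and 0.13 in arsenite), so the number was taken as a pairing there. In the other comparisons at least 1 pair was at or below 0.1.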

Additional observations from a re-analysis of the deposited data

Results flagged for a closer look

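The arsenite response of 7 genes differed between S181E and WT by the interaction term of the edgeR fit. The difference of log2 fold changes, S181E minus WT, was 0.65 for MT-ND1, 0.75 for MT-ND2, 0.66 for MT-CO2, 0.67 for MT-ATP6, 0.53 for MT-CO3, 0.71 for MT-ND3 and 0.74 for MT-ND5. All 7 genes fell after arsenite in WT, and the fall was smaller, or not called, in S181E.

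The response of 4 genes differed between Y396E and WT, by 0.80 for MT-RNR1, 0.44 for MT-ND1, 0.60 for MT-ND2 and 0.66 for MT-ND3. MT-ND1, MT-ND2 and MT-ND3 were called for both mutants, which share the WT libraries. Both counts moved by more than 1.5 times when single libraries were left out, as given with the responses above.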

How the results depend on the processing

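Counts of called chrM genes were within 1.5 times of the main count under most alternatives. The exceptions were as follows. With no filter on low counts, 17 were called for arsenite in S181E and 22 in Y396E. For the difference of responses between S181E and WT, 4 were called with the lower filter, 12 with only the groups compared and 12 with the replicate block. For Y396E minus WT the counts were 2 by DESeq2, 1 with the lower filter, 0 with only the groups compared and 12 with the replicate block. The block called 10 genes for Y396E against WT in arsenite, 9 for S181E against WT in arsenite and 1 for RQ against WT in control, and lost no call. Except for RQ and WT the number was not taken as a pairing, because at least 1 same-numbered pair correlated at or below 0.1. Even so, each library correlated best with its own number for arsenite in S181E and Y396E. The same held for Y396E against WT in arsenite and for Y396E against S181E in both treatments. These same-number r were at most 0.14. With the block 12 genes were called for arsenite in S181E and 14 in Y396E. The number still had a pattern, as the dish numbered 3 had the lowest chrM share in all 8 groups. In control, S181E and WT libraries correlated by number at r = 0.01, 0.24 and 0.30, and Y396E and WT at -0.05, 0.06 and 0.42. Whether the number marks a shared batch was not tested. With libraries paired, the share of RQ against WT (0.16) passed at an adjusted p of 0.0391. The rRNA to coding ratio came to an adjusted p of 0.0521 for S181E (-0.64) and Y396E (-0.75) against WT. The numbers of coding genes with a differing share within coding counts were 0 for the 4 tests between populations (smallest adjusted p 0.07). Paired tests between populations have 64 flips and cannot give an exact sign-flip p under 0.0312, the value behind each of these adjusted p. They therefore cannot decide whether the differences in rRNA ratio and in shares within coding counts hold. The mitochondrial share of RQ against WT did pass at that smallest p. With all chrM genes of the strand as denominator, the numbers of coding genes with a differing share were 8 for Y396E against WT and 0 for Y396E against S181E. MT-CO3, MT-CYB and MT-ND3 then turned to 0.27, 0.33 and 0.17 after arsenite, and MT-CO3 to 0.061 in S181E against WT.

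Leaving out each of the 24 libraries gave 3 to 7 calls for S181E against WT in arsenite, 4 to 6 for Y396E, 3 to 12 and 0 to 11 for the differences of responses, and 16 for arsenite in WT and RQ. Shares within coding counts differed for 1 to 2 genes in RQ against WT and 0 to 1 in Y396E against S181E. The rRNA to coding ratio of Y396E against S181E ranged from -0.139 to -0.0832 and passed without Y396E arsenite replicate 1 or control replicate 2. Changing the scaling moved no log2 fold change by more than 0.06, and no called change turned sign under any alternative of the fit. The tRNA counts are limited by read assignment and by few reads.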
